A study of Mus musculus with 6 samples.

Results

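The genes described here are 10 imprinted genes with known roles in growth: Igf2, Grb10, H19, Phlda2, Dlk1, Plagl1, Peg3, Mest, Sgce and Peg10. They were chosen by name, by the gene name the array files give each probe, to ask whether imprinted genes other than Cdkn1c moved as the imprinted Cdkn1c did. They are 10 of 27703 named genes and hold 20 of 41174 probes. Of these, 9 genes and 18 probes were bright enough to be tested, among 20412 genes that passed the same filter, 20406 of which had a test. The RNA came from epithelium peeled as sheets from the forestomach, which in the mouse has a stratified squamous lining like that of the oesophagus. Each of the 3 controls carried K5-CreER, a recombinase that tamoxifen activates and that the keratin 5 promoter drives in basal cells. Each of the 3 mutants carried K5-CreER and Rosa26Sox2/Sox2, with a Sox2 transgene in each allele of Rosa26. Both groups received 2 doses of tamoxifen at 7 weeks, were 12 weeks old by the labels, and came from a 129/Sv and C57/BL6 mixture. The sample was labelled with Cy5 and hybridised with Universal Mouse Reference RNA of 11 mouse cell lines in Cy3, so every level below is a log2 ratio of sample over reference, and every difference is the mutant mean minus the control mean on that scale.

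An imprinted gene is expressed mainly from the copy inherited from 1 parent, because DNA methylation set in the germ line marks the parental copies differently. Many paternally expressed imprinted genes promote fetal growth and many maternally expressed ones restrain it. Most are highly expressed before birth and decline in the tissues of the young animal. Cdkn1c encodes the cyclin-dependent kinase inhibitor p57, which holds cells out of the cell cycle. It is maternally expressed and lies on distal chromosome 7 in a cluster with H19, Igf2 and Phlda2. Total RNA levels, as measured here, do not show from which parental copy a transcript came.

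The results turn most on H19, so the sequences of its 2 probes are given, because they differed in how far the gene's change passed the test. Coordinates are those of the files, in the mm9 build that their headers name, and all letters are in lower case because no single stretch is marked out. The first H19 probe, on the minus strand at chr7:149761769-149761828, starts at base 1865 of its transcript. The second, at chr7:149762018-149762165, starts at base 231 of another H19 transcript, and its 60 bases were placed by the files over 148 bases of genome.
H19 first probe: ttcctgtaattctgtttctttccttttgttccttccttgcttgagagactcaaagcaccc
H19 second probe: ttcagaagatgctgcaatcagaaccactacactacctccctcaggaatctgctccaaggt
For Grb10, 2 of its 3 probes are shown because they are the ones whose differences did not match that of the brightest probe. Probe 2 lies at chr11:11870574-11870633 and starts at base 255 of the transcript. Probe 3, at chr11:11833580-11834228, starts at base 1886. Both are on the minus strand.
Grb10 probe 2: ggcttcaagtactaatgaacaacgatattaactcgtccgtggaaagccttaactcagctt
Grb10 probe 3: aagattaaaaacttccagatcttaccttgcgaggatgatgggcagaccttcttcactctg

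The arrays were not equal in quality or in spread. Sample signal stood well above background for 62.6% (control 3) to 76.2% of probes, and the median signal was 4.66 times the background on control 3 against 11.3 to 12.4 times on the others. Controls 1 and 2 were close to each other (scaled median absolute difference 0.156), as were mutants 2 and 3 (0.104), whereas the other pairs lay 0.326 to 0.731 apart. The labels call the arrays biological replicates, and the p-values measure only the spread between these samples. Control 3 alone was on slide 2 and on the second scan day, controls 1 and 2 shared slide 1, and the mutants shared slide 3. Each slide thus carried a single genotype. Slide and genotype effects are mixed in every mutant minus control difference given here, and a random block for slide cannot separate them. In the fit over all genes with limma, 578 genes passed an adjusted p of 0.05, but 4 passed with slide as a random block, 58, 52 and 1482 without control 1, 2 or 3, and 34 and 36 without mutant 2 or 3. The Sox2 probe gave log2 ratios of 6.26, 6.09 and 6.38 in controls and 5.67, 5.83 and 5.95 in mutants (adjusted p = 0.143, limma), with no mutant above any control, and whether its probe reads the transgene was not tested. Gt(ROSA)26Sor, transcribed from the targeted locus, fell by 3.69 (adjusted p = 0.00115).

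Cdkn1c sets the scale for the comparison. Its log2 ratios were 0.71, 0.42 and -0.13 in controls 1 to 3 and 3.92, 3.78 and 3.62 in mutants 1 to 3. All mutants lay far above all controls. The means were 0.33 ± 0.43 (SD, n = 3) and 3.77 ± 0.15 (SD, n = 3), a 10.9-fold difference of 3.44 log2 units (SE 0.23, adjusted p = 0.00387, limma). The reference channel of this probe was itself brighter on the mutant arrays, by 3.68 log2 units after loess and Aquantile normalization, and the sample channel alone was higher by 7.13, so the ratio gives the smaller of both values. Cdkn1c was chosen with its rise known, so these values are a description. With slide as a random block its adjusted p was 0.0646.

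None of the 9 imprinted growth-control genes tested passed the threshold (limma), where 2.83% of all genes did: 1.41% higher and 1.43% lower in mutants. At an unadjusted p under 0.05 there were 2 of the 9, H19 and Peg3, against 23.9% of all genes. The groups did not overlap for 4 of the 9, H19, Dlk1, Peg3 and Phlda2, where 38% of all genes showed no overlap (18.2% with mutants lower, 19.7% with mutants higher), so the share is close to that of all genes. The differences ran from -1.24 (H19) to 0.99 (Mest), with 5 above and 4 below 0 and a median of 0.13, against a median of 0.00598 over all genes. Among the 6 tested genes expressed from the paternal copy, 4 were above 0 and the median was 0.28. Among the 3 expressed from the maternal copy, as Cdkn1c is, Grb10 was above 0, H19 and Phlda2 were below, and the median was -0.60. Without control 3 these medians were 0.029 and -0.31, and the median of the 9 was -0.073. In that fit 1 of the 9 passed, H19, where 1482 of all 20318 genes passed.

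**Figure D1:**
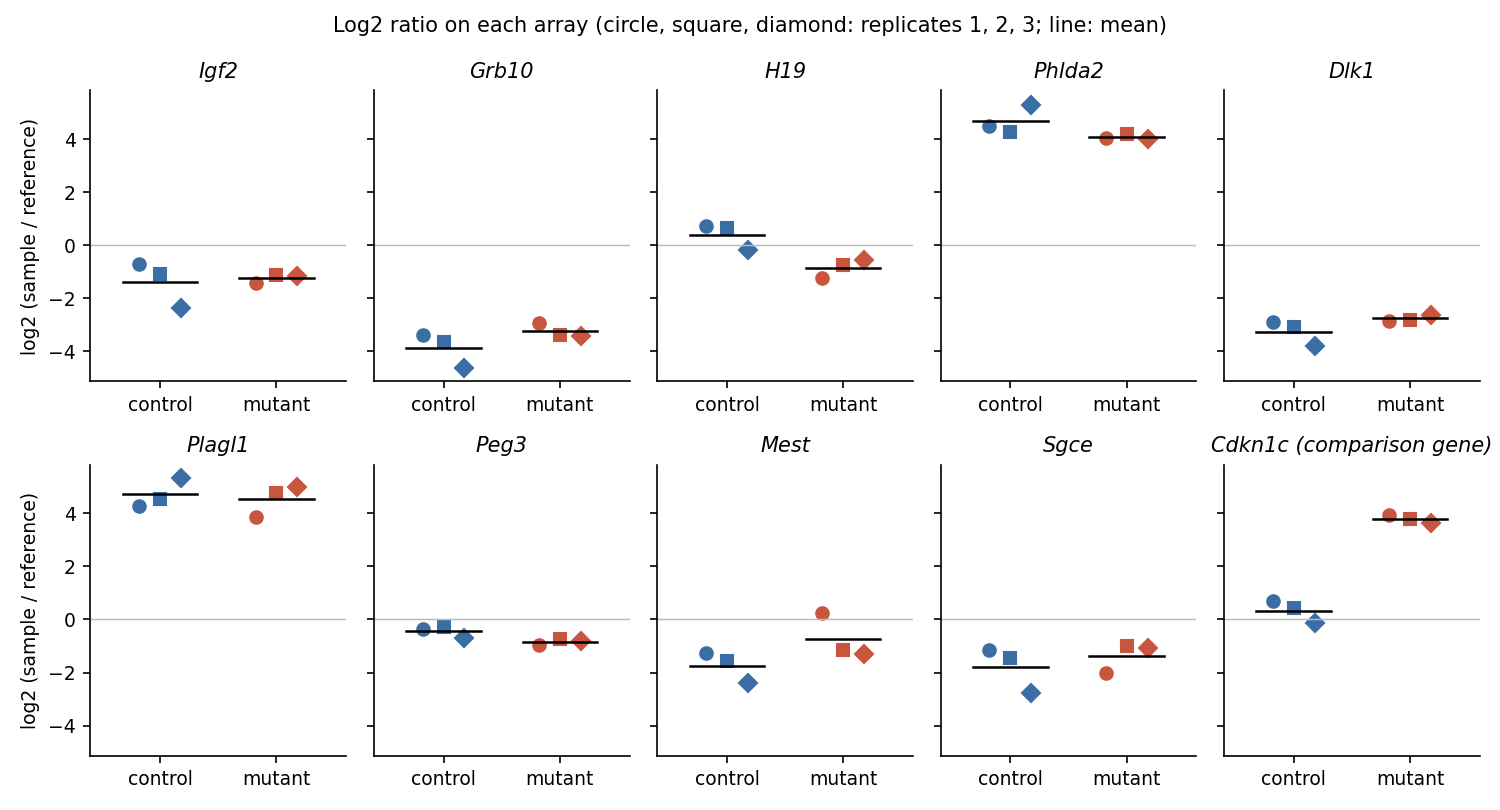
Log2 ratio of sample over reference (vertical axis) on each of the 6 arrays for the 9 tested imprinted growth-control genes and Cdkn1c. Blue marks are controls, red marks are mutants, circles, squares and diamonds are replicates 1, 2 and 3, and lines are group means; Cdkn1c alone shows mutants at 3.62 or above with controls at 0.71 or below, and control 3 lies apart from the other controls for most genes.

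Igf2 and Grb10 act on the same signalling pathway: Igf2 is the fetal insulin-like growth factor, a paternally expressed ligand of the IGF1 receptor, and Grb10 is an adaptor that binds the insulin and IGF1 receptors and dampens their signal. The probe representing Igf2 gave log2 ratios of -0.69, -1.09 and -2.36 in controls and -1.43, -1.14 and -1.17 in mutants. The mutants fell inside the span of the controls, which control 3 stretched downward. The difference was 0.13 (SE 0.42, 95% interval -0.88 to 1.14, adjusted p = 0.868, limma), and a second probe gave 0.32 (adjusted p = 0.596 over all probes, limma). Without control 3 the difference turned to -0.36 (adjusted p = 0.223). The Igf2 signal was far above background on all 6 arrays, with 804 units on control 3 and 5084 to 7921 on the others over local backgrounds of 41.4 to 44.6, so its transcript was measured in these adult sheets.

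Grb10 gave log2 ratios of -3.37, -3.65 and -4.64 in controls and -2.95, -3.38 and -3.41 in mutants on its brightest probe, at chr11:11830965-11831024. The groups overlapped, since control 1 lay above mutants 2 and 3. The difference was 0.64 (SE 0.34, adjusted p = 0.303, limma), and 0.27 without control 3 (adjusted p = 0.382). Grb10 probes 2 and 3, printed above, gave 0.10 (SE 0.26) and -0.31 (SE 0.32), with adjusted p of 0.838 and 0.588 over all probes, so its 3 probes did not share a sign and no direction is given for this gene. Probe 3 was well above background on 1 of the 3 controls and on all 3 mutants, so part of its control values lie near background.

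H19 was the imprinted growth-control gene with the largest difference in size. It is a maternally expressed noncoding RNA, the host of a microRNA, that lies next to Igf2 and shares its enhancers. The first probe gave log2 ratios of 0.71, 0.65 and -0.18 in controls and -1.23, -0.74 and -0.57 in mutants. All 3 mutants were below all 3 controls, with control 3 nearest to them. The means were 0.39 ± 0.49 (SD, n = 3) and -0.85 ± 0.34 (SD, n = 3), a 2.36-fold difference of -1.24 (SE 0.29, 95% interval -1.95 to -0.53). It did not pass the threshold over all genes (adjusted p = 0.0842, limma), and p was 0.1 by an exact two-sided permutation test, which cannot go lower with groups of 3. Without control 3 it was -1.53 (adjusted p = 0.0262, limma) and passed.

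The second H19 probe showed a larger gap. Its log2 ratios were 0.81, 0.71 and 1.08 in controls and -1.63, -0.81 and -0.72 in mutants. Control 3 was the highest array here, whereas it was the lowest control on the first probe. The difference was -1.92 (SE 0.26), and this was the only 1 of the 18 probes to pass when every probe was tested by itself (adjusted p = 0.0241, limma), where 2.73% of all probes passed. In the sample channel alone both probes were lower in mutants, by -1.39 and -2.04 log2 units, while the reference channel moved by -0.15 and -0.12. The mean signals before correction were 3333, 3362 and 854 units in controls and 865, 1366 and 1530 in mutants on the first probe. On the second they were 1701, 1573 and 1091 against 319, 601 and 669. Before correction, control 3 was below every mutant on the first probe, whereas its ratio to the reference was above every mutant. Taken as the value of the gene, the second probe lost its call without control 1, control 2, mutant 2 or mutant 3 (adjusted p = 0.108, 0.107, 0.105 and 0.0945, limma).

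Phlda2, a small maternally expressed protein with a pleckstrin homology domain that limits placental growth, gave log2 ratios of 4.50, 4.28 and 5.27 in controls and 4.06, 4.19 and 4.02 in mutants. The mutants lay below all controls by a narrow margin, and control 3 stood highest. The difference was -0.60 (SE 0.26, adjusted p = 0.228, limma). A second probe gave -0.50 (SE 0.15, adjusted p = 0.125 over all probes), but 50 of its 60 bases are those of the first, so it is no separate measurement. In the sample channel alone the first probe differed by 0.036, and the reference channel differed by 0.63, so the sample channel did not show the fall that the ratio shows. Without control 3 the difference was -0.31 (adjusted p = 0.159).

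**Figure D2:**
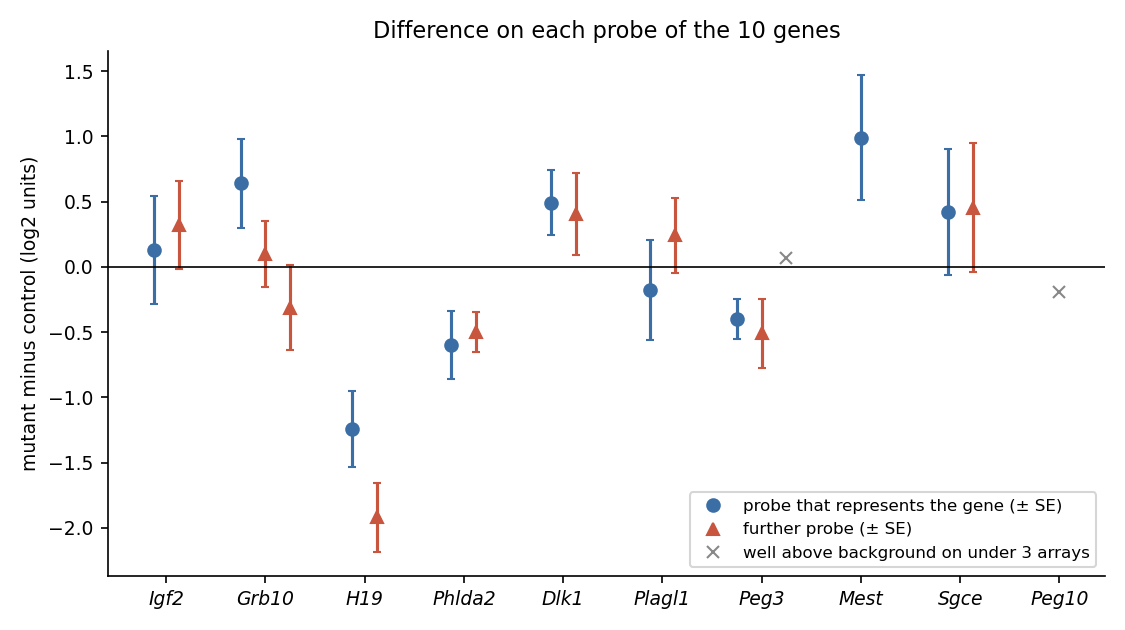
Mutant minus control difference in log2 units (vertical axis) for each of the 20 probes of the 10 genes; blue circles are the probes that represent a gene and red triangles the further probes, each with its SE, and grey crosses are probes well above background on under 3 arrays. Both H19 probes lie lowest, at -1.24 and -1.92, and the probes of Grb10 and Plagl1 lie on both sides of 0.

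Dlk1, Plagl1, Peg3 and Mest are paternally expressed genes of different kinds, and the tests called none of them. Dlk1, a transmembrane protein related to the Notch ligands that marks progenitors such as preadipocytes, gave log2 ratios of -2.88, -3.08 and -3.80 in controls and -2.86, -2.81 and -2.62 in mutants. The mutants lay above all controls, although mutant 1 and control 1 were nearly level. The difference was 0.49 (SE 0.25, adjusted p = 0.286, limma). The second probe gave 0.41, and on it the groups overlapped. Without control 3 the difference on the first probe was 0.22 (adjusted p = 0.294). Plagl1, a zinc finger transcription factor reported to act on other imprinted genes, gave 4.26, 4.55 and 5.33 in controls and 3.86, 4.75 and 4.99 in mutants. Its groups overlapped over most of their range. The difference was -0.18 (SE 0.39, adjusted p = 0.803) on the brighter probe and 0.24 on the other, and it turned to 0.13 without control 3 and to 0.16 without mutant 1. Its signal was between 59205 and 178214 units over backgrounds of 42.5 to 52 and was not saturated on any of the 6 arrays.

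Peg3, a zinc finger protein of the paternally expressed group, gave log2 ratios of -0.37, -0.28 and -0.69 in controls and -0.97, -0.75 and -0.81 in mutants. Every mutant was below every control, and control 3 was close to them. The difference was -0.40 (SE 0.15, 95% interval -0.76 to -0.03, adjusted p = 0.183, limma). A second probe gave -0.51 (SE 0.27), and on it the groups overlapped. Peg3 was a dim gene: the first probe was well above background on 5 of 6 arrays and another on 1 of 6. In the sample channel alone the difference of the first was 0.011, and the reference channel differed by 0.41. Both values turn on control 3, where the signal of this probe was 50.9 units over a background of 39. The sample channel gave 7.81, 7.84 and 6.39 in controls and 7.29, 7.38 and 7.41 in mutants. The reference channel gave 8.18, 8.12 and 7.08 in controls and 8.27, 8.13 and 8.22 in mutants. Mest, a protein with an alpha/beta hydrolase fold that rises in growing adipose and mesenchymal tissue, gave -1.25, -1.56 and -2.40 in controls and 0.24, -1.16 and -1.30 in mutants. Mutant 1 stood alone, and mutant 3 lay just below control 1. The difference of 0.99 had an SE of 0.49 and an interval from -0.19 to 2.17 (adjusted p = 0.269, limma), an interval that holds both a small fall and a rise. It was 0.66 without control 3, 0.50 without mutant 1 and 0.17 without both.

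Sgce and Peg10 are neighbours on chromosome 6, both paternally expressed. Sgce encodes epsilon-sarcoglycan, a membrane protein of muscle and other cells, and gave log2 ratios of -1.16, -1.44 and -2.78 in controls and -2.04, -1.01 and -1.07 in mutants. Control 3 and mutant 1 were the low arrays of their groups, and the groups overlapped. The difference was 0.42 (SE 0.49, adjusted p = 0.627, limma), with 0.46 on a second probe, and -0.073 without control 3. Peg10, a gene derived from a retrotransposon and needed for the placenta, has 1 probe, and it was well above background on 0 of 6 arrays. Its log2 ratios were -0.47, -0.37 and -0.23 in controls and -0.75, -0.51 and -0.40 in mutants, with signals of 48.5 to 76.7 units over backgrounds of 37 to 49.5. Peg10 was therefore not tested and has no fold.

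Set against Cdkn1c on the same arrays, each of the 9 genes changed less. The difference of differences ran from -4.68 (SE 0.30, limma) for H19 to -2.45 (SE 0.36) for Mest. The 95% interval nearest to 0, that of Mest, ended at -1.65. A smaller change than that of Cdkn1c was called for 99.6% of all genes too, so it is not particular to the imprinted genes. Picking Cdkn1c for its rise fixed this outcome in advance, so the p-values of the 9 genes are not given. By the root mean square distance over the 6 arrays between log2 ratios centred on the control mean, Mest lay nearest to Cdkn1c at 1.79 (rank 815 of 20317 genes) and H19 farthest at 3.32 (rank 20020). The 3 genes nearest to Cdkn1c were Rnf183 (0.257), Ehd3 (0.325) and Retnlg (0.366), none of them on the lists of imprinted genes. Nearest to H19 were Susd4 (0.0989), H2bc21 (0.113) and Gpr37l1 (0.131), with differences of -1.18, -1.11 and -1.24, and none of these passed the threshold either.

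**Figure D3:**
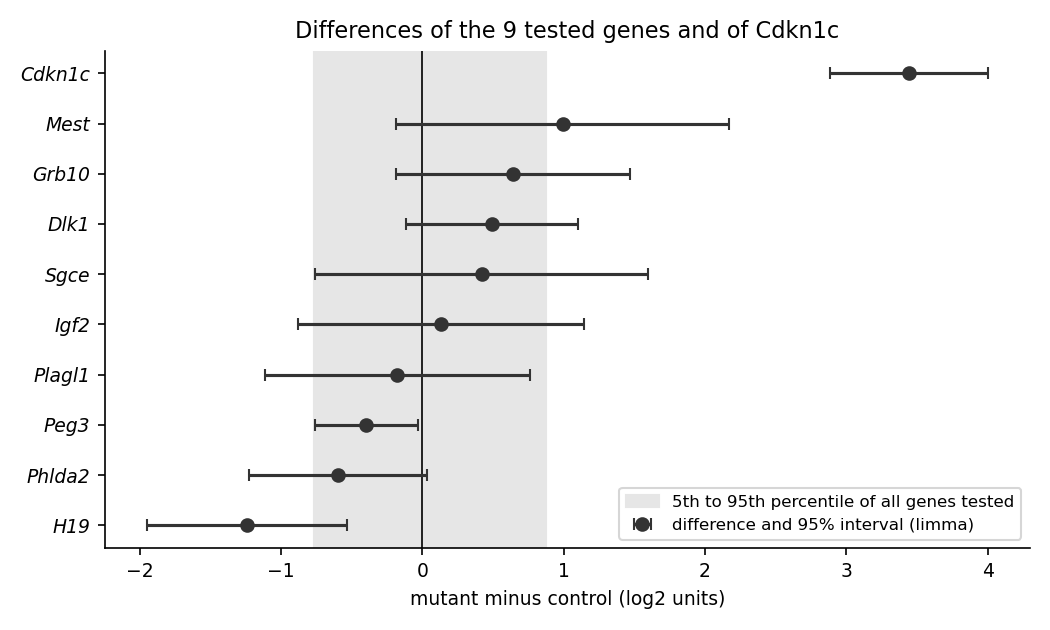
Mutant minus control difference (horizontal axis, log2 units) with its 95% interval from limma for the 9 tested imprinted growth-control genes and Cdkn1c; the grey band spans the 5th to the 95th percentile of all genes tested, -0.764 to 0.878. The points of Cdkn1c (3.44), Mest (0.99) and H19 (-1.24) lie outside the band, and the intervals of all but Cdkn1c, H19 and Peg3 cross 0.

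The neighbours of Cdkn1c on chromosome 7 differed in both directions. In the imprinted cluster, 12 genes besides Cdkn1c were tested, 6 above and 6 below 0, with 1 called higher and none lower. Over all genes 2.83% were called, 1.41% of them all higher in mutants, and 1 call among 12 genes is too few to set against that share. Phlda2, whose probe lies 42.72 kb from that of Cdkn1c (chr7:150687474-150687533), and Slc22a18, a transporter-like gene at 40.38 kb, each differed by -0.60. Neither passed (adjusted p = 0.228 and 0.128, limma). A second Slc22a18 probe gave -0.081 (SE 0.28, adjusted p = 0.88 over all probes, limma). Kcnq1, a potassium channel gene at 32.01 kb on the other side, differed by -0.024 (SE 0.66), and Nap1l4, a histone chaperone gene at 54.73 kb, by 0.21. Igf2 and H19 lie 808.1 and 883 kb away. Cd81, a tetraspanin gene at 391 kb, was the one called: its log2 ratios were -0.80, -0.88 and -1.15 in controls and 0.18, 0.07 and 0.03 in mutants. The groups were well apart, and the difference was 1.04 (SE 0.14, adjusted p = 0.0223, limma). The call of Cd81 was lost without control 1, control 2, mutant 2 or mutant 3 (adjusted p = 0.0864, 0.105, 0.127 and 0.115).

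**Figure D4:**
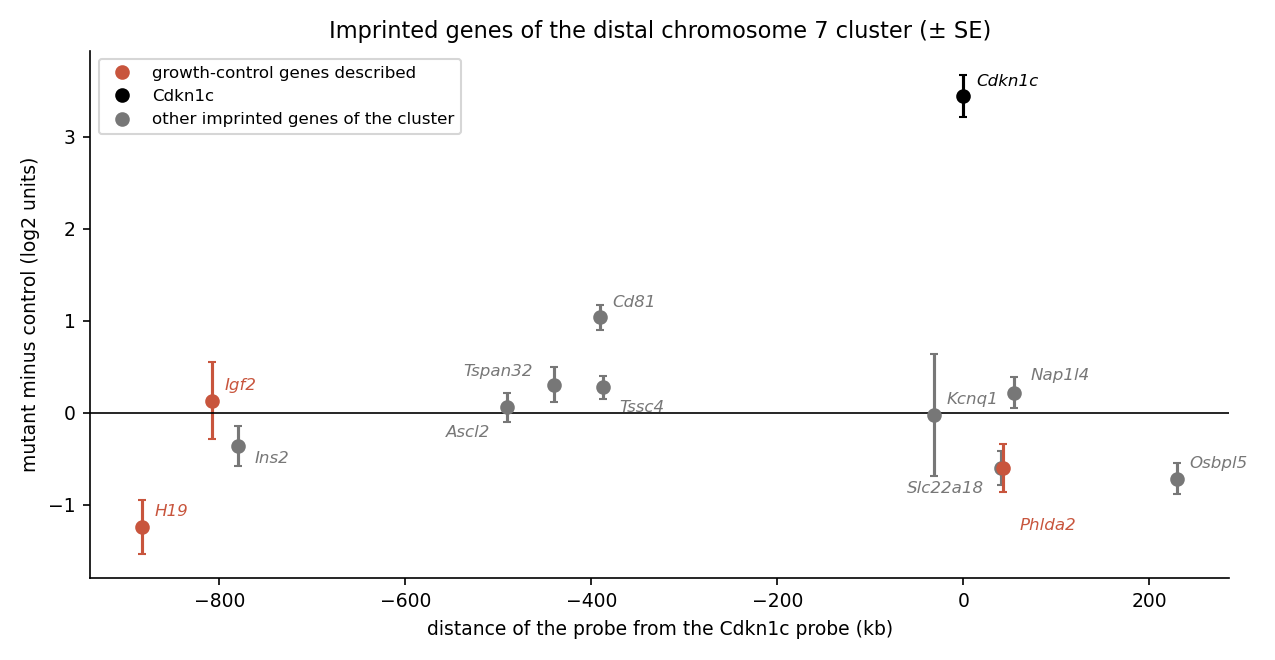
Mutant minus control difference in log2 units with its SE (vertical axis) against the distance in kb of each gene's probe from the Cdkn1c probe (horizontal axis) for the 13 tested genes of the imprinted cluster on distal chromosome 7. Red marks are H19, Igf2 and Phlda2, the black mark is Cdkn1c at 3.44, and grey marks are the other genes, which lie between -0.72 (Osbpl5) and 1.04 (Cd81).

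A wider list of 49 other imprinted genes was read the same way, without a test of whether each is imprinted in this tissue. Of these, 41 were tested, and 2 passed, both higher in mutants: Cdkn1c, which was picked for its rise, and Cd81. Of all genes 2.83% passed, but the call of Cdkn1c was fixed by that pick, so the shares are not compared. The signs were 18 above and 23 below 0, with a median of -0.22. The groups did not overlap for 20 of the 41, Cdkn1c among them, against the 38% of all genes. The next smallest p-values belonged to Osbpl5, a lipid transfer protein gene (-0.72, adjusted p = 0.0861, limma), and Peg12, a paternally expressed gene of chromosome 7 (0.45, adjusted p = 0.125). Of 29 genes for insulin-like growth factor and insulin signalling, a list that also holds Igf2 and Grb10, 27 were tested and 1 passed, near the 2.83% of all genes: Foxo1, at a difference of -0.81 (SE 0.12, adjusted p = 0.0309, limma). Foxo1 is a transcription factor that insulin signalling keeps out of the nucleus. Its log2 ratios were 0.11, 0.32 and 0.10 in controls and -0.71, -0.62 and -0.57 in mutants, with no overlap. A second Foxo1 probe gave -0.67 (adjusted p = 0.0649), and the call was lost without control 1, control 2, mutant 1, mutant 2 or mutant 3 (adjusted p = 0.118, 0.138, 0.0507, 0.148 and 0.145). The ligand Igf1 gave 1.04 (adjusted p = 0.176), the related factor Foxo3 -0.36 (0.169) and the kinase Akt1 0.33 (0.191). The receptor of Igf2 that clears it, the imprinted Igf2r, gave -0.26 (0.228), and the signalling receptor Igf1r gave -0.21 (0.696). The median of this list was 0.087, and -0.16 without control 3.

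Several of the imprinted genes are expressed by mesenchymal cells, and markers of such cells differed between arrays within each group. In bulk RNA fewer cells of a type and less RNA per cell cannot be told apart. On control 3, 7 of the 9 genes were lower than the mean of controls 1 and 2, from -0.36 for Peg3 to -1.48 for Sgce, while Plagl1 and Phlda2 were higher by 0.93 and 0.88. On that array all 12 fibroblast and mesenchyme markers were lower, with a median of -1.59, and so were all 7 smooth muscle markers, with a median of -2.09. On mutant 1, the genes that stood off most from mutants 2 and 3 were Mest (1.47), Plagl1 (-1.01) and Sgce (-0.99), with the 7 smooth muscle markers at a median of -1.30. The fibroblast markers had a median of 0.12 there, with 4 of 12 lower. The summed sample signal of the fibroblast markers ran from 122500 to 400400 in controls and from 400100 to 411200 in mutants. That of the smooth muscle markers ran from 78800 to 673200 and from 101100 to 461000. Between the groups the fibroblast markers had a median difference of 0.71, 12 of 12 above 0 with 0 called, and 0.14 without control 3. Dcn is on both the fibroblast list and the list of other imprinted genes. The part of these cells in the differences of the imprinted genes was not tested.

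The other marker lists describe what else the sheets held. The 10 squamous epithelium markers, among them Krt5, Krt14 and Trp63, summed to between 1251000 and 1792000 in controls and 1286000 and 1556000 in mutants, with a median difference of -0.49 and 0 called. Markers of the glandular stomach were present too, from 14090 to 1536000 in controls and from 306700 to 1210000 in mutants, and 11 of 12 were lower on control 3. Endothelial markers summed to 6372 to 15770 in controls and 12600 to 28220 in mutants, with 0 of 7 called. Of 7 immune cell markers 3 were called higher, S100a8, Cd68 and Csf1r, and the sum was 8030 to 9429 in controls and 215000 to 449200 in mutants; S100a8, a protein of neutrophils that stressed keratinocytes also make, had the largest difference of them (7.85). Of 7 adipocyte markers 4 were tested and 0 called, and Adipoq, Lep and Cfd were not bright enough to be tested.

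**Figure D5:**
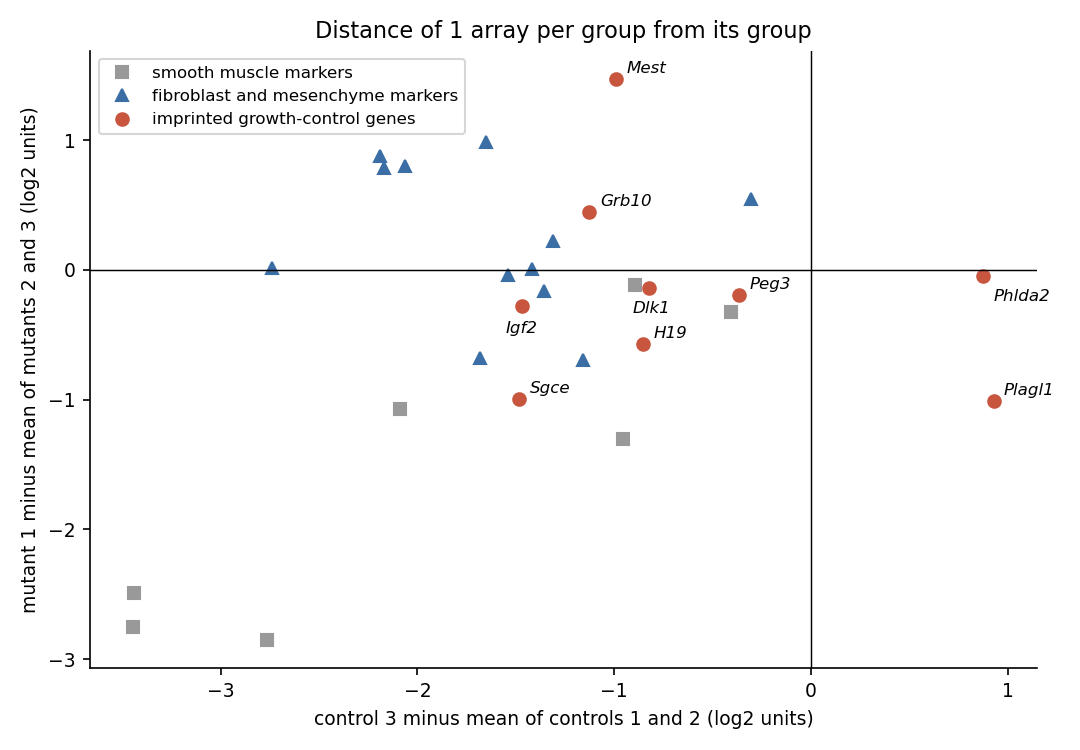
Distance of control 3 from the mean of controls 1 and 2 (horizontal axis) against the distance of mutant 1 from the mean of mutants 2 and 3 (vertical axis), both in log2 units, for the 9 imprinted growth-control genes (red circles), fibroblast and mesenchyme markers (blue triangles) and smooth muscle markers (grey squares). Of the 9 genes, 7 lie to the left of 0 with all markers of both lists, and Plagl1 and Phlda2 lie to the right.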

How the data were processed

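RNA of 3 control and 3 mutant samples was hybridised to 2-colour Agilent arrays. Per the file headers, the deposited spot intensity values are the scanner output of Feature Extraction 10.5.1.1 (control 3: version 10.7.3.1), whereas the submitters' processing notes name version 9.1. The authors also deposited a table of log2 ratios, used as an alternative. Against the scanner files it ran as sample over reference on a log2 scale, with column medians of 0.052, 0.06 and 0.026 in controls and 0.042, 0.043 and 0.039 in mutants; its centring is unknown, and its columns for mutants 1 and 3 each matched the other's scanner file (r = 0.988). Which source carries the wrong number is unknown; mutants are numbered here as in the scanner output.

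Signals were corrected with normexp (offset 50) and loess in limma 3.58.1 under R 4.3.3, without control and outlier spots. Probes were kept if their sample signal was well above background on 3 or more of 6 arrays, and of a gene's probes the one of brightest mean sample signal stood for the gene. Of 41174 probes, 32699 (79.4%) were named through RefSeq's gene table (GRCm38.p6, names only), 272 had no name and the rest kept the files' name. Groups were compared with lmFit and eBayes over all genes, two-sided, with Benjamini-Hochberg adjustment and a threshold of 0.05; the fit has 4 residual degrees of freedom, and the number of arrays limits the precision. Summed signals are sample-channel values after loess and Aquantile. The method was tested on simulated data. The members and lists were chosen with earlier results of these data known. The text names all members and their probes, Cdkn1c, list genes that passed or were among the 4 smallest p-values, and the 3 nearest genes; Igf2r, Igf1r and the near neighbours of Cdkn1c were named after their values were seen. The 22 alternatives covered background, normalization, the deposited table, the filter, the choice of probe, array weights, slide, scan day, the replicate number and leaving out arrays.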

Additional observations from a re-analysis of the deposited data

How the results depend on the processing

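The number of genes called, 578, was 327 with the scanner's processed signals, 313 and 349 with the sample channel alone (quantile; loess and Aquantile), 11519 with array weights, 4 with slide as a random block, 1482 with scan day as a block, 0 with near-identical arrays averaged in pairs (limma, 2 values a group; 2170 genes had an unadjusted p under 0.05), 7695 without control 3 and mutant 1, and 34 to 1482 when single arrays were left out. The replicate block gave 137 genes and no imprinted growth-control gene. Same-numbered arrays deviated together by correlations of 0.00579, 0.0187 and 0.125, so the numbers were not taken as pairs. The count of these genes called was 1 (H19) with either sample channel setting, the mean of a gene's probes and scan day. Of all genes, 313, 349, 616 and 1482 were called in these settings. It was 6 of 9 with array weights, where 11519 of all 20318 genes were called. Without control 3 and mutant 1 it was 3 of 9, where 7695 of 20318 were called. When single arrays were left out it was 0 to 1, where 34 to 1482 of 20318 were called. H19 was below 0 in all 22 alternatives, from -1.58 to -1.05, with adjusted p from 4.12e-05 to 0.641, and passed in 7. Its second probe, examined after its values were seen, ran from -2.14 to -1.49 and passed in 12 of 21. Cd81 and Foxo1, added likewise, kept their signs in all 22 and passed in 13 and 11. These tallies count some fits more than once. Scan day as a block was the same fit as leaving out control 3, the only array of the second day. Changing only the filter left the H19 difference at -1.24. Cdkn1c ran from 3.14 to 7.37 and lost its call with slide as a random block and with averaged pairs. All 9 genes changed less than Cdkn1c in the 10 alternatives run, an outcome that picking Cdkn1c for its rise largely fixed.

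Signs turned as follows. Igf2 went to -0.13 with array weights, -0.36 with scan day, -0.26 without control 3 and mutant 1, and ran from -0.36 to 0.47 when single arrays were left out. Peg3 went to 0.069 and 0.011, and Phlda2 to 0.11 and 0.036, with the sample channel alone (quantile; Aquantile). Plagl1 went to 0.052 with the quantile-normalized sample channel, 0.20 with arrays scaled to one spread, 0.033 with the mean of probes, 0.41 with array weights, 0.13 with scan day and 0.47 without control 3 and mutant 1, and ran from -0.41 to 0.16 when single arrays were left out. Sgce went to -0.073 with scan day and ran from -0.073 to 0.75. The cause was not tested. Signal over background limits Peg10, which was not tested, and the dimmest probes of Peg3 and Grb10.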
